A study of Mus musculus with 12 samples.

Results

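The Egr, Ier and Etv genes and Epha2 are transcribed when the kinase ERK is active, and open chromatin was described here around 9 of them, Egr1, Egr2, Egr3, Ier2, Ier3, Etv1, Etv4, Etv5 and Epha2, out of 21911 protein-coding genes. The members were every ATAC-seq peak over the gene body or within 50 kb on either side. Peaks of the 7 deposited lists that overlapped by 1 bp or more were merged into loci, and 142 of 147985 loci lay in these windows. Each of the 142 was 400 bp wide and belonged to 1 gene. A locus was called open in a list that held a peak over it and closed in a list that did not. Loci with an annotated start (TSS) of any protein-coding gene within 1000 bp were called promoter loci and the rest distal, which gave 25 promoter and 117 distal loci. Distances from a gene start run to the centre of the locus.

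ATAC-seq, in which the Tn5 transposase cuts accessible DNA, was performed on 3 transformed lines of mouse embryonic fibroblasts (MEFs), about 50000 cells per library. Hras.E1A cells carry the oncogene Hras with adenoviral E1A and Hras.Myc cells carry Hras with Myc (the labels write Ras), each untreated, with the MEK inhibitor PD0325901 (PD) or with the histone deacetylase inhibitor trichostatin A (TSA) for 2 days. Hdac7SA.Mef2d cells carry the transcription factor Mef2d with a serine-to-alanine form of the histone deacetylase Hdac7, and were untreated. Untreated and PD groups had 2 libraries each and TSA groups 1, and every group was deposited as 1 pooled list, so no group has a replicate error and no test or p-value is given. The labels name OG2 MEFs, which in the study carry an Oct4-GFP reporter, as the cells, while the growth protocol names the ICR background. MEFs without transgenes were not analysed here. The 95% intervals of shares are exact (Clopper-Pearson), reflect counting error only and take loci as independent. Transcript levels were not analysed here. The score of a peak is the authors' and its scale is not stated, so scores are set side by side and ranked only within a list. Depth is unknown, so a closed locus may still hold reads, and fewer cells with an open locus cannot be told apart from less accessibility per cell. Fibroblast identity was checked at 10 marker genes, of which 7 to 10 had an open promoter locus in each list. Col1a1, Pdgfra, Twist1 and Vim had one in all 7. Col1a2 had one only in Hras.E1A with PD and in Hdac7SA.Mef2d. Thy1 had one only in Hras.Myc without treatment and with PD and in Hdac7SA.Mef2d, and Prrx1 lacked one in untreated Hras.E1A. Of 16 markers of blood, endothelium, epithelium, nerve and pluripotent cells, Ptprc, Spi1, Cdh5, Krt5, Sox10, Gfap, Pou5f1 and Nanog had none in any list. Epcam, Krt8, Kdr and Sox2 had one in all 7, Cdh1 in 6, Cd68 in 5, Pecam1 in 4 and Rbfox3 in 1.

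ERK acts on chromatin through transcription factors. It phosphorylates ETS-domain partners of serum response factor (SRF), which binds CArG boxes in the promoters of immediate early genes such as Egr1 and Ier2, and it raises the level and activity of AP-1, the dimer of Fos and Jun proteins that binds many distal enhancers. The Egr genes encode zinc-finger transcription factors, Ier2 and Ier3 encode small immediate early proteins, Etv1, Etv4 and Etv5 encode the PEA3 group of ETS factors, and Epha2 encodes a receptor tyrosine kinase for ephrins.

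AP-1 sites stood in most of the loci that lost their peak with PD in both Hras lines, so the DNA around them is shown for the locus of each gene that scored highest in Hras.E1A and for the closing locus next to the Epha2 start. The AP-1 motif is in capitals (TGANTCA, searched on both strands), each stretch is from GRCm38, the assembly of mm10, and reads along the strand of the gene.
Egr2 upstream locus, site A (chr10:67493699-67493755, plus strand): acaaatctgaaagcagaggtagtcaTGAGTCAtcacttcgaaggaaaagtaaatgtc
Egr2 upstream locus, site B (chr10:67493758-67493814, plus strand): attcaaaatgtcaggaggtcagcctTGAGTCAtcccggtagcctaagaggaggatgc
Egr3 upstream locus, site A (chr14:70028284-70028340, plus strand): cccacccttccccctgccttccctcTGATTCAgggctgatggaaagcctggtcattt
Egr3 upstream locus, site B (chr14:70028317-70028373, plus strand): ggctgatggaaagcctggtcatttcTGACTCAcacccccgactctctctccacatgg
Ier2 upstream locus (chr8:84677431-84677487, minus strand): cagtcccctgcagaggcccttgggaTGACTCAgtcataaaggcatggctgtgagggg
Ier3 downstream locus (chr17:35854706-35854762, plus strand): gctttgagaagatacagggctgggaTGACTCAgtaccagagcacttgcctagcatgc
Etv1 downstream locus (chr12:38874760-38874816, plus strand): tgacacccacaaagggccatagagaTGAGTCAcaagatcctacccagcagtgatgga
Epha2 first-intron locus, site A (chr4:141302088-141302144, plus strand): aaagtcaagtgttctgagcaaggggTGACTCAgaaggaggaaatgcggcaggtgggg
Epha2 first-intron locus, site B (chr4:141302191-141302247, plus strand): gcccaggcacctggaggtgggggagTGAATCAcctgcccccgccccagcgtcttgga
Epha2 downstream locus (chr4:141345489-141345545, plus strand): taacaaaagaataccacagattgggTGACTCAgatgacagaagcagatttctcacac

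Of the promoter loci with a peak in all 7 lists, those of Egr2, Ier2 and Epha2 hold other motifs, and these are shown because CArG boxes and cyclic AMP response elements (CRE, TGACGTCA) are the textbook sites of immediate early promoters. The CArG box or CRE is in capitals.
Egr2 promoter, CArG box A (chr10:67537469-67537528, plus strand): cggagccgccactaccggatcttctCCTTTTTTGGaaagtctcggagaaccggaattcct
Egr2 promoter, CArG box B (chr10:67537772-67537831, plus strand): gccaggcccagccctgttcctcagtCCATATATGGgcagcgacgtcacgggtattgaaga
Ier2 promoter, CRE (chr8:84662865-84662922, minus strand): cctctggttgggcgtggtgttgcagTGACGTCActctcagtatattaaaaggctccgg
Epha2 promoter, CRE (chr4:141301163-141301220, plus strand): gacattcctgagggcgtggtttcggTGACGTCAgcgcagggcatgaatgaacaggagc

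The PD lists were set against the untreated lists of the same line, which asks how chromatin near ERK-induced genes responds when MEK is blocked. The main promoters kept their peaks, except that of Egr3 in Hras.Myc, while many distal loci lost theirs. In Hras.E1A, 36 of the 103 open loci closed, 35.0% (25.8 to 45.0). In Hras.Myc, 34 of 96 did, 35.4% (25.9 to 45.8). Over all loci the shares were 38.9% in Hras.E1A and 38.4% in Hras.Myc, so in the full lists the share near these genes was close to the background. Among distal loci alone, 34 of 79 closed in Hras.E1A, 43.0% (31.9 to 54.7) against 46.3% of all distal loci, and 31 of 72 in Hras.Myc, 43.1% (31.4 to 55.3) against 46.9%. Promoter loci closed less often in both lines, 2 of 24 in Hras.E1A, 8.33% (1.03 to 27.0), and 3 of 24 in Hras.Myc, 12.5% (2.66 to 32.4), near the 6.98% and 7.16% of all promoter loci. With lists cut to equal size, 26.4% of the loci near these genes closed in Hras.E1A against 36.2% of all loci. In Hras.Myc it was 30.6% against 36.4%, so both shares then lay further below the background. Without the lowest 25% of scores they were 43.5% against 42.9% and 42.2% against 43.0%. The map of loci by distance and list shows the open column at each gene start and the gaps at distal positions in both PD lists.

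**Figure D1:**
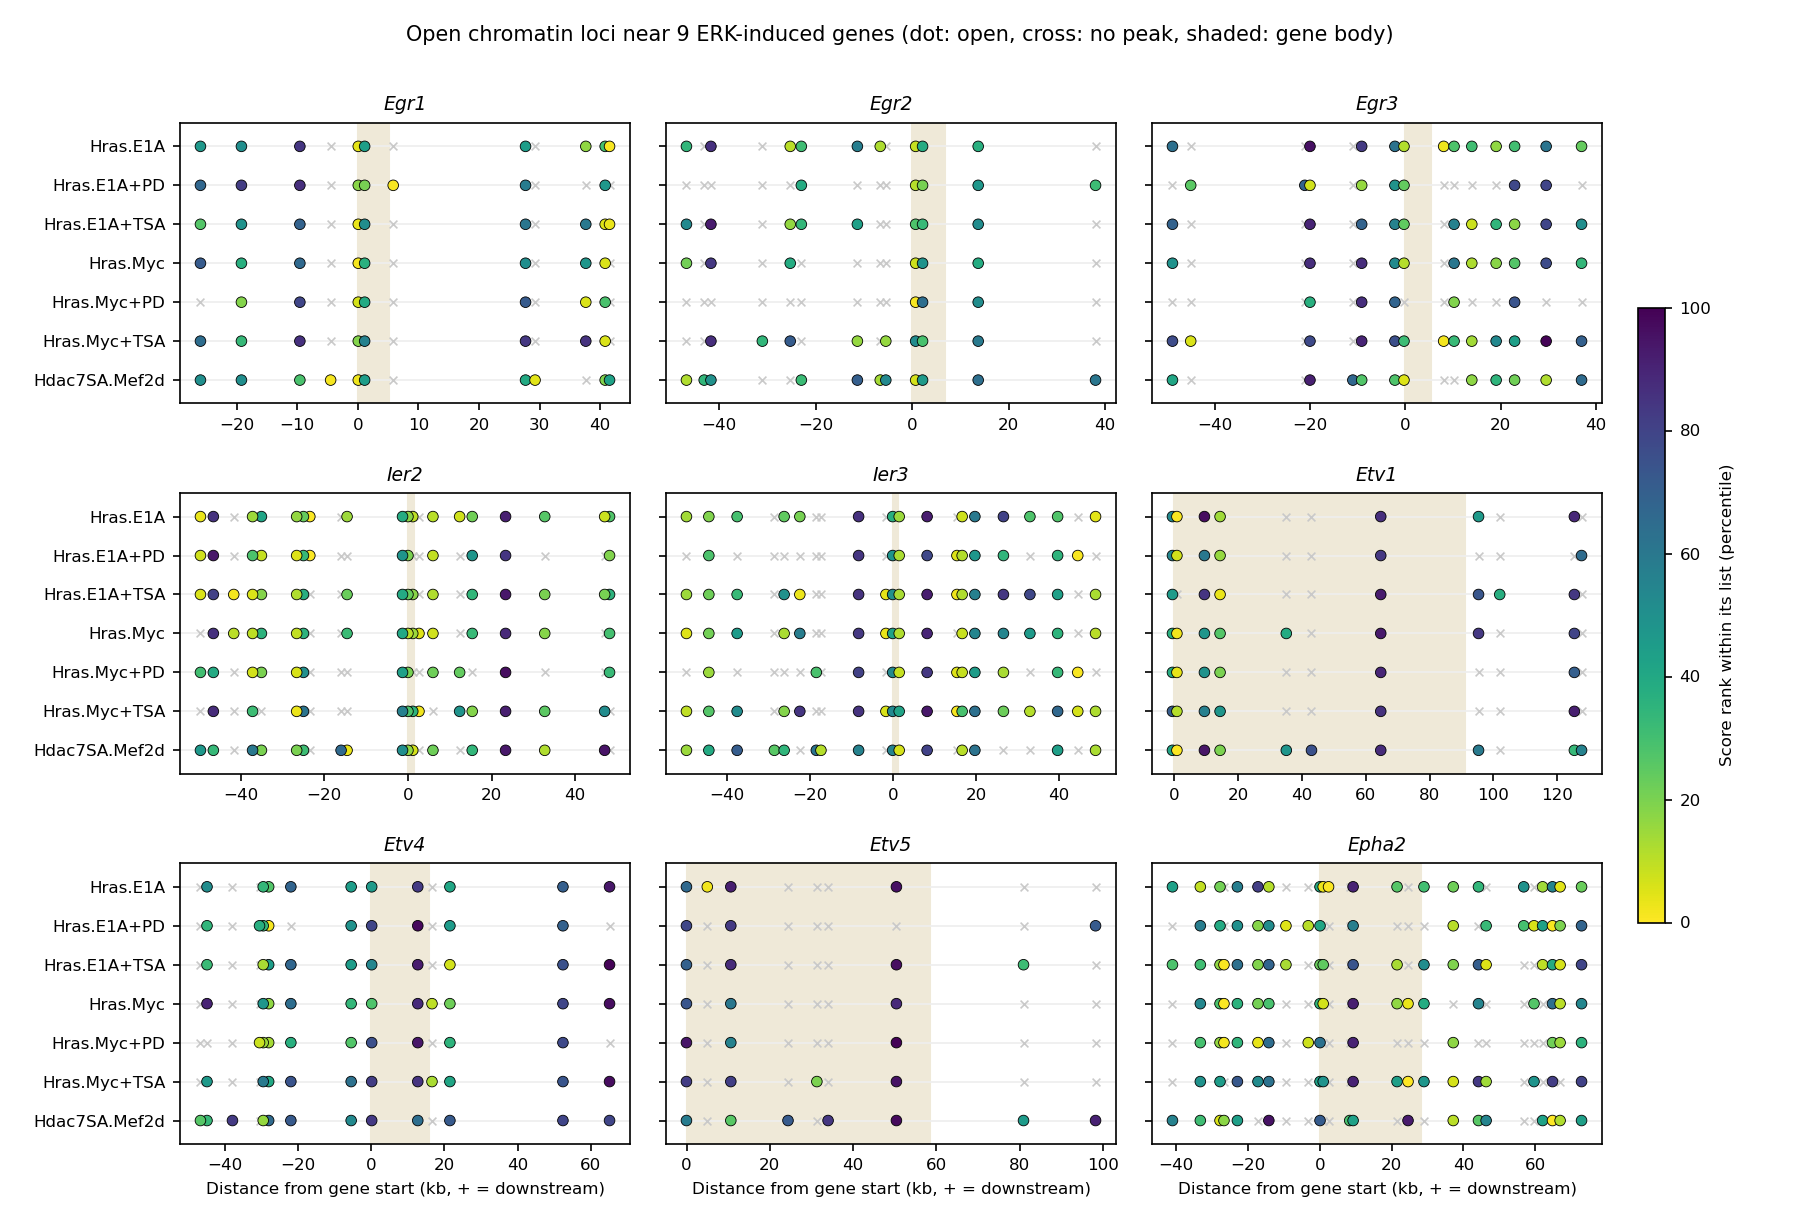
Each panel plots the loci of 1 gene by the distance of their centre from the gene start (kb, downstream positive), with a line for each of the 7 lists. A dot marks an open locus, coloured by the rank of its score within its list (percentile), a cross marks a locus without a peak, and the gene body is shaded. The 2 PD lines hold 80 and 70 dots and the other lists 96 to 109.

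Both Hras lines had 88 of the loci open without treatment, and 22 of these closed in both with PD, which is 25.0% against 24.4% of all loci open in both. Another 5 closed in Hras.E1A alone, 5 in Hras.Myc alone, and 56 kept their peak in both, 63.6% against 57.9% over all loci. The 22 belonged to 7 genes, with 6 near Ier3, 4 each near Egr3 and Epha2, 3 each near Egr2 and Ier2, and 1 each near Etv1 and Etv4. Egr1 and Etv5 had none, with 8 and 3 loci open in both untreated lines. Genes were assigned by window, and of the 20 distal loci among the 22, 8 lay nearer to the TSS of another gene. Their median score was 4.01 in Hras.E1A (percentile 26.3) and 4.69 in Hras.Myc (percentile 32.7), against 5.28 (percentile 40.1) and 5.03 (percentile 36.6) in the 56 kept loci, so the ranks lay closer in Hras.Myc. Of the 22, 16 were open in Hdac7SA.Mef2d, 72.7% (49.8 to 89.3) against 61.8% of all such loci, and 19 were open with TSA in both lines, 86.4% (65.1 to 97.1) against 74.7%.

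**Figure D2:**
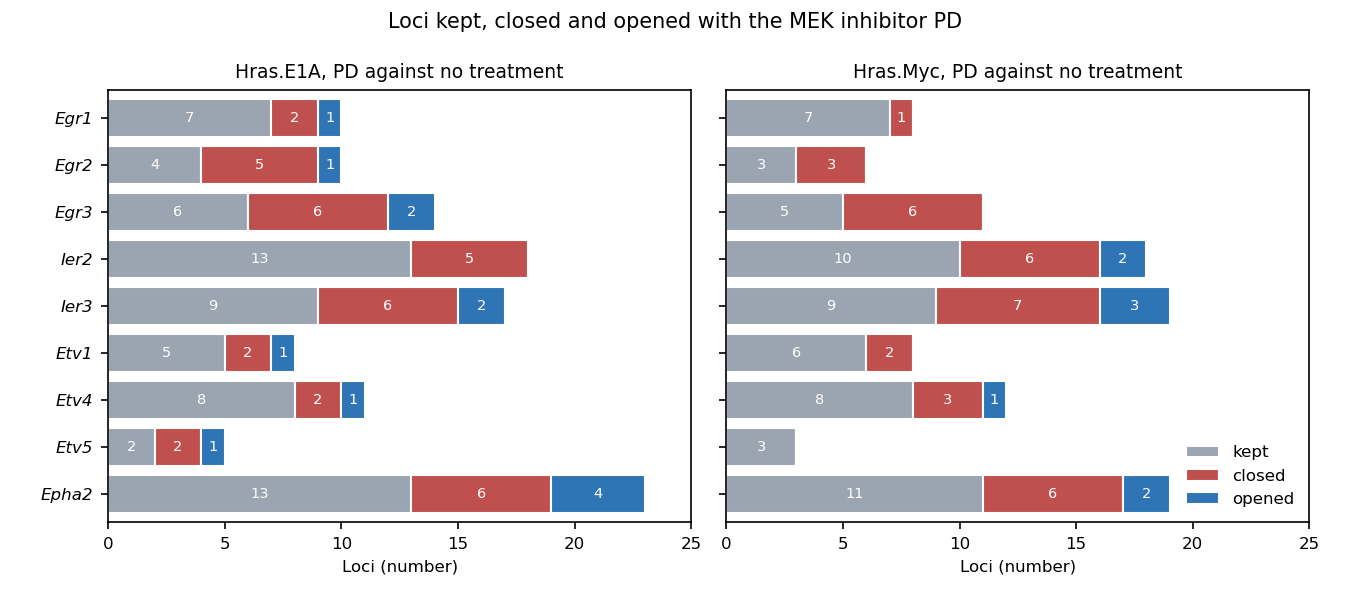
Bars give the number of loci of each gene that were open with and without PD (kept, grey), lost their peak (closed, red) or gained one (opened, blue), for Hras.E1A on the left and Hras.Myc on the right. Egr3 lost 6 loci in each line, and Egr1 lost 2 in Hras.E1A and 1 in Hras.Myc.

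The counts for each Egr gene are small, and whether these genes differ from each other was not tested. Over all loci PD closed 38.9% in Hras.E1A and 38.4% in Hras.Myc. Egr1 (chr18:34859823-34864984, plus strand), the best known ERK target of the family, kept 7 of 9 open loci in Hras.E1A and 7 of 8 in Hras.Myc. Its promoter locus, over the start and the 5′ UTR, scored 1.62 in Hras.E1A, 3.43 with PD and 1.55 with TSA, then 1.37 in Hras.Myc, 2.03 with PD and 2.67 with TSA, and 1.46 in Hdac7SA.Mef2d. A locus 1145 bp into the gene, beside an alternative start, was the stronger of the pair and scored between 3.75 (Hras.E1A with PD) and 5.78 (Hras.E1A with TSA). Both were open in all 7 lists. The locus 9545 bp upstream was open in all 7 as well, with 9.67 without and 12.2 with PD in Hras.E1A and 7.51 and 8.27 in Hras.Myc. The losses of Egr1 lay at different loci in the lines. A locus 25948 bp upstream scored 8.05 in Hras.Myc and had no peak there with PD, but went from 5.83 to 8.55 in Hras.E1A. A locus 37636 bp downstream, which holds an AP-1 motif, scored 3.00 in Hras.E1A and closed with PD, while in Hras.Myc it was open at 5.94 without and 1.94 with PD. The other loss in Hras.E1A was a weak peak 41556 bp downstream, at 1.31.

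Egr2 (chr10:67535475-67542188, plus strand), which acts in hindbrain and Schwann cell development, lost loci on its upstream side. It lost 5 of 9 open loci in Hras.E1A and 3 of 6 in Hras.Myc. The strongest, 41745 bp upstream (chr10:67493531-67493930) and holding the AP-1 sites A and B shown above, scored 9.96 in Hras.E1A and 9.69 in Hras.Myc, at percentiles 86.1 and 83.8 of those lists. It had no peak with PD in either line, scored 12.2 and 11.0 with TSA, and 5.56 in Hdac7SA.Mef2d. The loci 46816 bp and 25299 bp upstream closed in both lines too, from 4.74 and 2.30 in Hras.E1A and from 3.59 and 5.19 in Hras.Myc. All 3 carried AP-1 motifs. The Egr2 promoter locus, in an intron of the longest gene model and 56 bp from an annotated TSS, was open in all 7 lists with scores from 3.31 (Hras.Myc with TSA) to 6.92 (Hras.Myc with PD). A locus 11376 bp upstream was open at 6.71 in Hras.E1A and 7.41 in Hdac7SA.Mef2d, closed with PD, and had no peak in untreated Hras.Myc.

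Egr3 (chr14:70077203-70082614, plus strand) lost 6 of 12 open loci in Hras.E1A and 6 of 11 in Hras.Myc. Both of its flanks were affected. In both lines a locus 48913 bp upstream closed from 7.23 and 6.09, and loci 13932, 19039 and 36971 bp downstream closed from scores of 4.41, 3.00 and 3.74 in Hras.E1A and 2.57, 3.18 and 4.77 in Hras.Myc. The downstream loci lie nearer to the TSS of Bin3 than to that of Egr3. The strongest locus in untreated Hras.E1A, 20043 bp upstream (chr14:70056961-70057360) with an AP-1 and an ETS motif, kept its peak at a lower score, 13.1 without and 2.16 with PD, and 10.3 and 5.0 in Hras.Myc. At 681 bp from it, a locus had a peak in Hras.E1A with PD only, at 8.82. The Egr3 promoter locus was the only main promoter without a peak in a PD list. It scored 2.44 in Hras.E1A, 4.08 with PD and 3.60 with TSA, then 2.47 in Hras.Myc, no peak with PD and 3.46 with TSA, and 1.68 in Hdac7SA.Mef2d. Both untreated scores ranked low in their lists.

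The Ier genes lie among close neighbours, so their windows hold promoters of other genes. Ier2 (chr8:84661331-84662852, minus strand) lost 5 of 18 open loci in Hras.E1A and 6 of 16 in Hras.Myc. Its promoter locus was open in all 7 lists, at 3.15 in Hras.E1A and 3.69 with PD, at 2.37 in Hras.Myc and 3.61 with PD. A locus over the 3′ UTR (chr8:84661494-84661893), 959 bp from the start at its nearer edge and with an AP-1 motif, closed with PD from 2.27 in Hras.E1A and 2.90 in Hras.Myc. It was open at 2.99 and 3.71 with TSA and at 1.81 in Hdac7SA.Mef2d. Loci 32730 bp downstream and 14556 bp upstream closed in both lines from scores between 2.82 and 4.61. In contrast, the locus 23361 bp downstream held scores of 11.1 without and 11.6 with PD in Hras.E1A and 10.7 and 12.2 in Hras.Myc. Ier2 thus kept its promoter in both PD lists, as well as the distal locus of its window that scored highest in both untreated Hras lists. That distal locus lies in the body of another gene.

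Ier3 (chr17:35821684-35822923, plus strand), an immediate early gene tied to cell survival, had the most loci closed in both lines. It lost 6 of 15 open loci in Hras.E1A and 7 of 16 in Hras.Myc. The 6 shared loci lay 49871, 37640, 26290 and 22504 bp upstream and 33038 and 48882 bp downstream. Their scores ran from 1.65 to 4.30 in Hras.E1A, and from 1.73 to 6.80 for Hras.Myc. Of the 6, 3 held an AP-1 motif. The promoter locus of Ier3 was open in all 7 lists with scores from 4.99 to 6.46. The strong loci 8312 bp upstream and 8222 bp downstream, each with an AP-1 motif, also kept their peaks, the upstream one at 9.98 without and 11.7 with PD in Hras.E1A and 9.71 and 8.47 in Hras.Myc, the downstream one at 11.4 and 10.3 and at 10.9 and 8.87. AP-1 motifs thus stood in kept as well as in closed loci of Ier3. Promoter loci of the neighbours Flot1, Tubb5, Mdc1 and Nrm were open in all 7 lists.

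The Etv genes lost fewer loci than the Egr genes, 6 of 21 in Hras.E1A and 5 of 22 in Hras.Myc, against 13 of 30 and 10 of 25 for Egr. The difference between the families was not tested. Etv4 (chr11:101769742-101785371, minus strand) held the strongest locus that closed in both lines. It lies 65171 bp downstream of the Etv4 start (chr11:101720001-101720400), nearer to Dhx8, and scored 11.9 in Hras.E1A and 14.2 in Hras.Myc, percentiles 93.5 and 96.7. It had no peak with PD in either, 17.9 and 17.0 with TSA and 8.49 in Hdac7SA.Mef2d. This locus held no AP-1 motif but a TEAD motif (GGAATG). The intronic locus of Etv4, 12694 bp into the gene, went the other way in score, 9.42 without and 18.2 with PD in Hras.E1A and 10.5 and 11.0 in Hras.Myc. Loci 22038 bp and 44979 bp upstream, both with AP-1 motifs, closed in 1 line each. The nearer one closed in Hras.E1A from 7.64 and was at 4.98 with PD in Hras.Myc. The farther one closed in Hras.Myc from 11.1 and was at 5.12 with PD in Hras.E1A.

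Etv5 (chr16:22381309-22439719, minus strand) had 9 loci, the fewest of the 9 genes. Only 3 of them were open in untreated Hras.Myc, and none of these closed with PD. An intronic AP-1 locus 50401 bp into the gene (chr16:22389119-22389518) went different ways in the lines, a difference that was not tested. It scored 13.2 in Hras.E1A, had no peak with PD and 14.2 with TSA. In Hras.Myc it scored 10.7, 15.4 with PD and 15.5 with TSA, and in Hdac7SA.Mef2d 13.5. The intronic locus 10616 bp into the gene was at 11.3 with and without PD in Hras.E1A, and at 6.97 and 6.29 in Hras.Myc. Etv1 (chr12:38779380-38870484, plus strand) lost 2 of 7 open loci in Hras.E1A and 2 of 8 in Hras.Myc. Its AP-1 locus 95328 bp downstream of the start closed in both, from 5.76 and 9.68, and its AP-1 locus at 125365 bp closed in Hras.E1A from 10.6, while in Hras.Myc it scored 9.06 without and 7.39 with PD. Inside Etv1, the locus at 64672 bp, with a CArG box, stayed between 9.78 and 12.2 in all 7 lists.

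Epha2 (chr4:141301240-141329384, plus strand) had the most loci, 26. With PD it lost 6 of 19 open loci in Hras.E1A and 6 of 17 in Hras.Myc, and 4 closed in both. One of the 4 lies in the first intron, 759 bp from the start at its nearer edge (chr4:141301999-141302398), with the AP-1 sites A and B shown above. It scored 1.49 in Hras.E1A and 1.97 in Hras.Myc, closed with PD in both, scored 3.59 and 4.68 with TSA and was closed in Hdac7SA.Mef2d. The others lie over a coding exon and the intron beside it (21529 bp, 4.00 and 3.07), 29026 bp (4.37 and 5.20) and 44212 bp (4.75 and 6.51) downstream of the start. The promoter locus itself was open in all 7 lists, at 5.23 and 5.77 without and with PD in Hras.E1A and 4.84 and 6.81 in Hras.Myc. The intronic AP-1 locus 9287 bp into the gene also kept its peak, at 10.9 and 7.42 in Hras.E1A and 11.6 and 10.0 in Hras.Myc.

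Of the 13 promoter loci of the 9 genes, 9 were open in all 7 lists, and every gene except Egr3 had at least 1 of these. All 13 were open in both untreated Hras lines. The scores of the main promoter loci of Egr1, Ier2, Ier3, Etv1, Etv4, Etv5 and Epha2 were higher with PD in both lines. That of Egr2 was 5.16 without and 3.75 with PD in Hras.E1A, and 6.01 and 6.92 in Hras.Myc. That of Egr3 was higher with PD in Hras.E1A and had no peak with PD in Hras.Myc. For Etv4 the scores were 5.75 and 10.5 in Hras.E1A and 4.24 and 7.88 in Hras.Myc. For Etv5 they were 7.47 and 10.4, then 8.24 and 11.1. With no replicates, these score differences have no error. As a group the promoter loci ranked low in their lists, with a median percentile between 24.0 (Hras.E1A with PD) and 46.2 (Hras.Myc with PD). Etv1 has a weak second promoter locus 781 bp from the gene start that closed with TSA in Hras.E1A from 1.29.

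**Figure D3:**
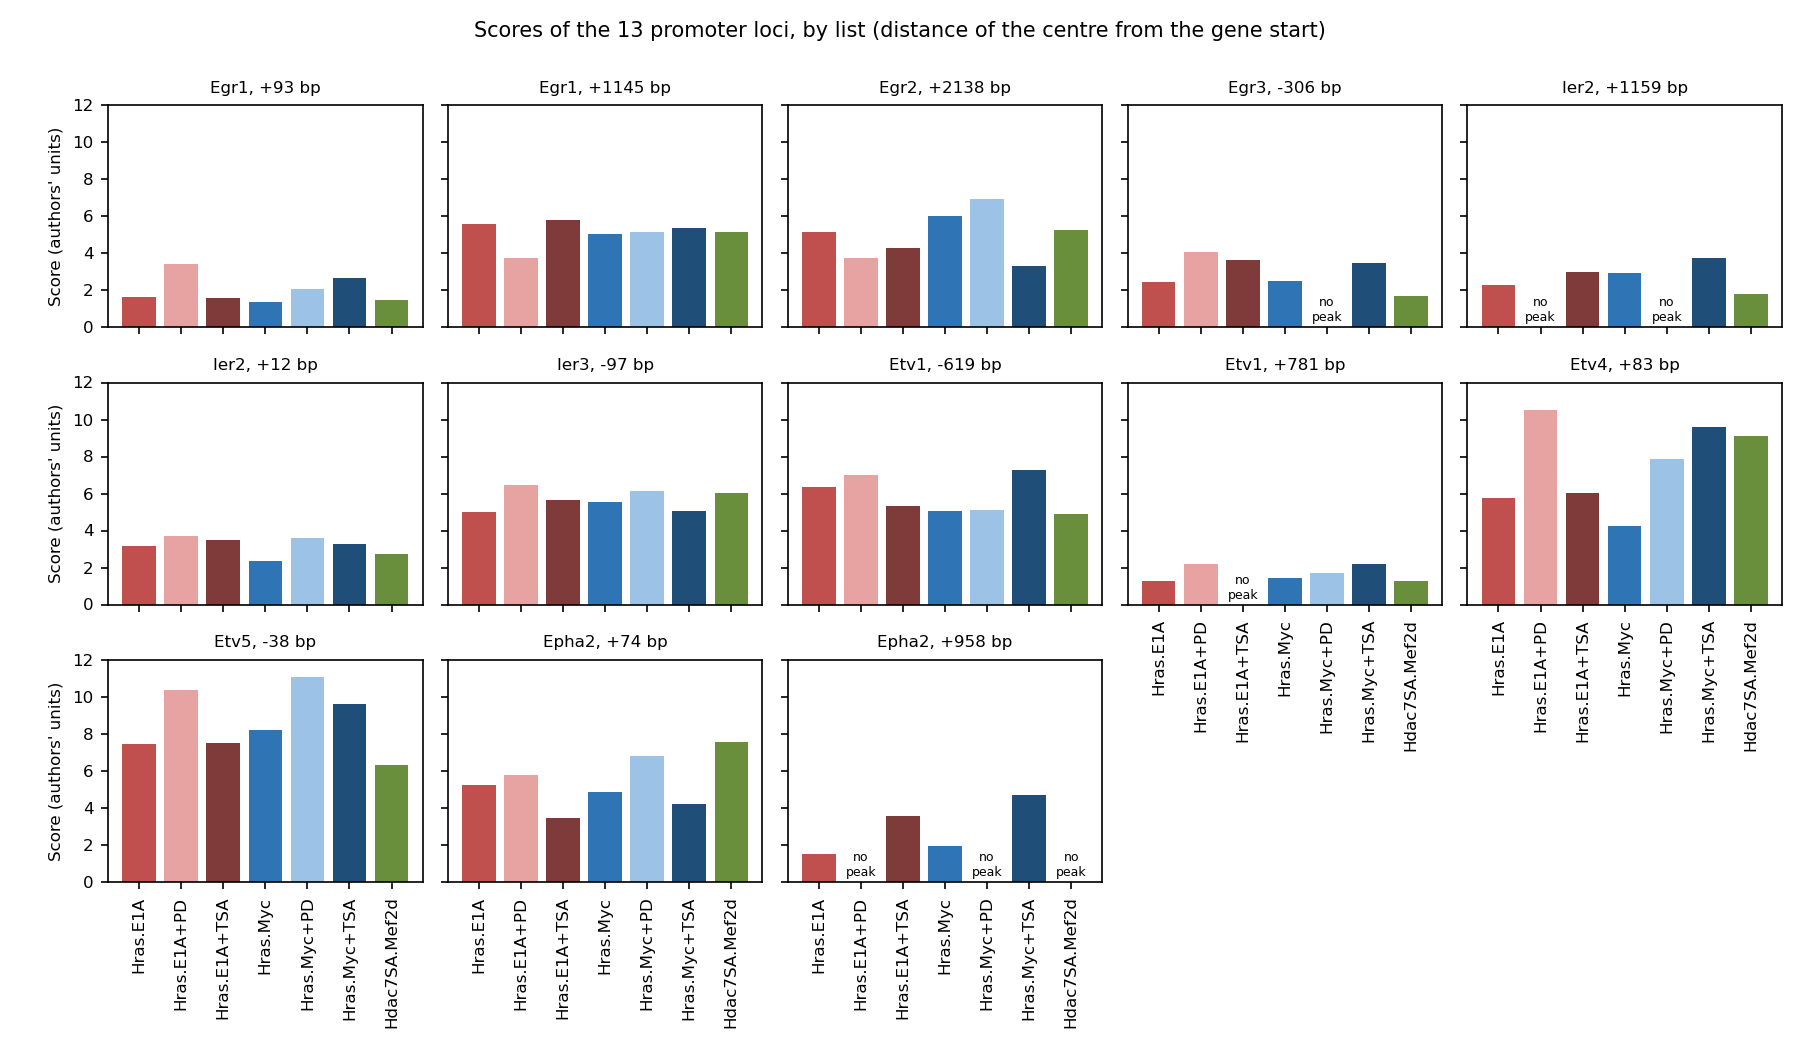
Bars give the score in the authors' units of each of the 13 promoter loci in each of the 7 lists, and "no peak" marks a list without one. Each panel names the gene and the distance of the locus centre from the gene start in bp. The Etv4 and Etv5 promoters reach 10.5 and 11.1 with PD. The main promoters of Egr1, Ier2, Ier3, Etv1 and Epha2 also score higher with PD in both lines. The loci at +1159 bp of Ier2 and +958 bp of Epha2 lack a peak in both PD lists.

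PD also opened loci. Near the 9 genes, 13 of the 80 loci open in Hras.E1A with PD were closed without it, 16.2% (8.95 to 26.2), close to 16.9% over all loci. In Hras.Myc it was 8 of 70, 11.4% (5.07 to 21.3), against 26.4% over all loci. With lists cut to equal size the shares were 46.6% against 35.9% in Hras.E1A and 28.6% against 36.2% in Hras.Myc, so the Hras.E1A share then lay above the background, as it did without the lowest 25% of scores (31.4% against 22.4%). In both lines 4 of the 31 loci closed without treatment opened, 12.9% (3.63 to 29.8) against 6.71% over all loci. These were one upstream of Etv4 (30607 bp, 5.38 in Hras.E1A and 2.26 in Hras.Myc), one upstream of Epha2 (3203 bp, 2.61 and 2.19) and a pair in the Ier3 window, 15421 bp downstream (1.93 and 1.85) and at the Ppp1r18 promoter (1.35 and 1.30). The strongest opened loci were in Hras.E1A, near Etv5 (98234 bp downstream of the start, 9.24), Egr3 (21124 bp upstream, 8.82) and Etv1 (127616 bp, 8.34). The Etv5 and Etv1 loci were open in Hdac7SA.Mef2d, at 10.5 and 6.05. No Egr locus opened in Hras.Myc.

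Motifs were searched in the central 200 bp of each locus on both strands, since AP-1, ETS and SRF carry ERK signals to DNA, and no spelled motif contains another. AP-1 (TGANTCA) separated closed from kept loci. With PD it stood in 14 of the 22 loci that closed in Hras.E1A and Hras.Myc alike, 63.6% (40.7 to 82.8), and in 8 of the 56 kept in both, 14.3% (6.38 to 26.2), and these intervals did not overlap. The same held over all loci, with 67.5% and 16.0%, and 29.2% of all loci held the motif. Of all promoter loci 6.52% held the motif, so distal loci were compared alone, where 12 of 20 closed loci, 60.0% (36.1 to 80.9), and 8 of 35 kept loci, 22.9% (10.4 to 40.1), had one. Those intervals overlapped slightly. Over all distal loci the shares were 68.0% of the closed and 23.5% of the kept, so the member shares lay near the background. Of the loci that PD opened, 1 of 13 in Hras.E1A held the motif, 7.69% against 7.79% over all loci, and 0 of 8 in Hras.Myc, against 10.9%.

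**Figure D4:**
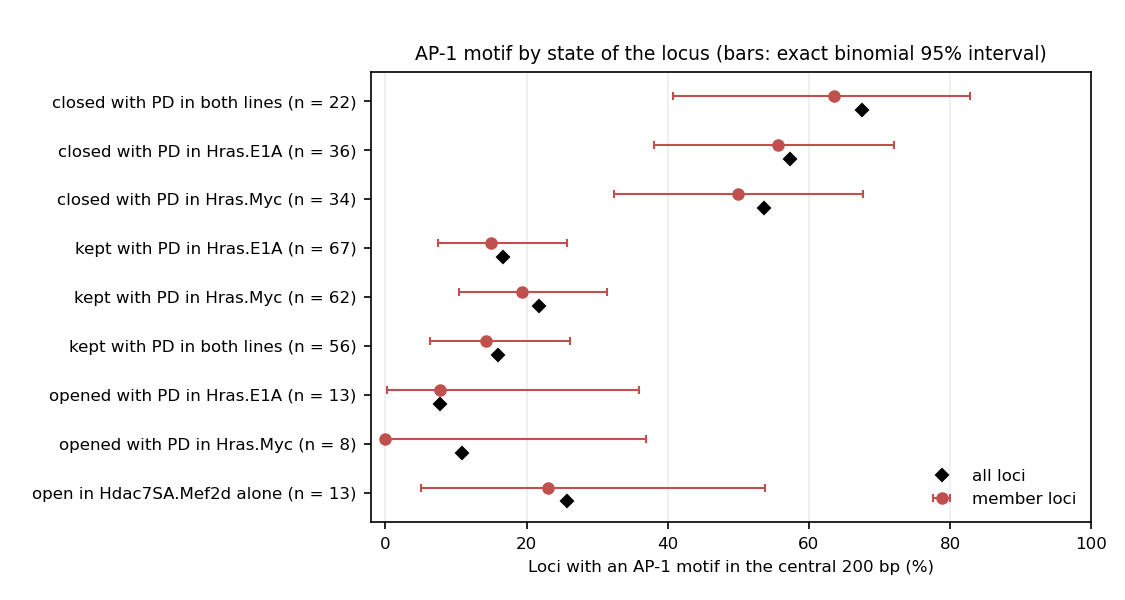
Red points give the share of member loci with an AP-1 motif in the central 200 bp, with exact binomial 95% intervals for counting error, by state of the locus, and black diamonds the share over all loci in that state. The share was 63.6% in loci closed with PD in both lines and 14.3% in loci kept in both.

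The other motifs were scarcer. ETS sites (CCGGAAG or CAGGAAG), the kind that Etv proteins bind, stood in 1 of the 22 closed loci, 4.55% (0.115 to 22.8), and 6 of the 56 kept, 10.7% (4.03 to 21.9), against 15.1% of all loci in either state and 11.5% of loci in all. With the central 400 bp searched the shares were 27.3% and 23.2%, against 24.3% and 24.9% of all loci in those states. A CArG box stood in 4 of the 142 loci, 2.82% (0.773 to 7.06) against 1.23% of all loci. Both CArG boxes of the Egr2 promoter lie outside its central 200 bp. The CRE stood in the Ier2 promoter alone (0.584% of all loci), since the Epha2 one lies outside the central 200 bp. The EGR site (GCGTGGGCG), in 0.149% of all loci, was in none of the 142. TEAD motifs stood in 16 of 142, 11.3% (6.58 to 17.7), against 18.9% of all loci. Of the 22 closed loci 2 had one, 9.09% against 14.6% of all such loci.

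TSA lists were set against the same untreated lists as PD, which asks whether blocking histone deacetylases opens chromatin near these genes. Few loci changed, and each TSA list comes from 1 library. In Hras.E1A 8 of 103 open loci closed, 7.77% (3.41 to 14.7) against 15.8% of all loci, and 8 of 103 loci open with TSA were closed without it, 7.77% against 14.2%. In Hras.Myc 10 of 96 closed, 10.4% (5.11 to 18.3) against 16.4%, and 12 of 98 opened, 12.2% (6.49 to 20.4) against 20.3%. The Hras.E1A shares were higher when low-scoring peaks were left out, and the cause was not tested. With lists of equal size 18.9% closed there against 20.2% of all loci and 28.3% opened against 20.2%, and without the lowest 25% of scores 17.7% closed against 20.0% and 19.0% opened against 18.4%. Of the 88 loci open without treatment in both, 0 closed with TSA in both, against 2.62% of all such loci, and 80 kept their peak in both, 90.9% (82.9 to 96.0) against 82.7%. In Hras.E1A the changed loci had low scores, with a median of 1.43 for the 8 that closed and 1.66 for the 8 that opened, against 4.72 for the kept ones. In Hras.Myc the medians were 4.01, 2.45 and 5.12. Ier2 lost the most in Hras.Myc, 5 of 16 open loci, with scores between 1.99 and 4.95, among them the AP-1 locus 14556 bp upstream that PD closed too. Egr2 gained 3 loci in Hras.Myc, all upstream, at 31082 bp (3.64), 11376 bp (2.50) and 5484 bp (2.49), and the latter pair was open in Hdac7SA.Mef2d at 7.41 and 5.82. Egr1 and Etv4 neither lost nor gained a locus with TSA in either line. A locus 15421 bp downstream of the Ier3 start (1.47 and 1.32) and one 46337 bp downstream of the Epha2 start (1.75 and 2.41) opened with TSA in both lines.

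The untreated lines were compared to ask how Hdac7SA.Mef2d, which the study could reprogram, differs from the Hras lines at ERK-induced genes. Near them 109 of 142 loci were open in it, 76.8% (68.9 to 83.4), an interval that includes the 80.2% of all loci open in this longest list. The Hras lines lay above their background, with 103 open in Hras.E1A, 72.5% (64.4 to 79.7) against 54.4%, and 96 in Hras.Myc, 67.6% (59.2 to 75.2) against 45.4%. They also did so at the other pathway genes described below. Of the 109, 20 were closed in both untreated Hras lines, 18.3% (11.6 to 26.9) against 42.6% over all loci. All 20 were distal, and among distal loci the share was 23.3% (14.8 to 33.6) against 48.0%. With lists of equal size the share of all was 36.6% against 45.2%, and without the lowest 25% of scores it was 33.3% against 47.4%. They had a median score of 6.01, from 1.32 to 10.5, so many were not marginal. Etv5 had 4 of them, in introns 33983 bp (9.21) and 24354 bp (7.59) into the gene and 80929 bp (5.21) and 98234 bp (10.5) downstream of its start. Etv4 had 2, at 38018 bp (9.01) and 46774 bp (3.62) upstream. Etv1 had 2, an intronic one at 42964 bp (7.99) and the one at 127616 bp. The Etv genes together held 8, the Egr genes 6, the Ier genes 4 and Epha2 2. An Epha2 intron locus at 24585 bp was open in Hras.Myc at 1.58 but at 11.1 in Hdac7SA.Mef2d.

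In the other direction, 22 of the 111 loci open in either untreated Hras line were closed in Hdac7SA.Mef2d, 19.8% (12.9 to 28.5) against 22.1% over all loci. With lists of equal size it was 66.2% against 55.4%, and without the lowest 25% of scores 31.6% against 30.9%. Epha2 had 7 of them and Ier2 5, whereas Etv1 had none. The locus 17205 bp upstream of Epha2 scored 9.28 in Hras.E1A, 3.47 there with PD, 3.52 in Hras.Myc and 1.69 there with PD. In the Ier3 window the locus 26644 bp downstream of the start scored 9.02 and 6.48 in the untreated Hras lines and 5.14 and 2.85 with PD. All 9 genes kept at least 1 open promoter locus in Hdac7SA.Mef2d.

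Other genes of the pathway gave the setting. For 50 genes of the RAS to ERK cascade, its nuclear effectors, feedback inhibitors and other induced genes, 776 loci lay in windows of the same kind, none of which met a window of the 9 genes. PD closed 31.6% (27.7 to 35.8) of their loci in Hras.E1A, and the Hras.Myc share was 32.0% (27.9 to 36.2). These lay near the 35.0% and 35.4% at the 9 genes and below the 38.9% and 38.4% of all loci. Promoter loci made up 143 of the 534 pathway loci open in Hras.E1A, against 15173 of 80569 over all loci. The distal closed shares were 41.4% (36.5 to 46.5) and 42.0% (37.0 to 47.3), with intervals that include the 46.3% and 46.9% of all distal loci. Among distal loci of the pathway genes, 19.5% (14.9 to 24.7) of those open in Hras.Myc with PD had opened and 28.2% (24.1 to 32.6) of those open in Hdac7SA.Mef2d were closed in both untreated Hras lines. The shares at the 9 genes, 14.6% (6.07 to 27.8) and 23.3%, had intervals that include these values, and both sets lay below 33.7% and 48.0% of all distal loci.

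**Figure D5:**
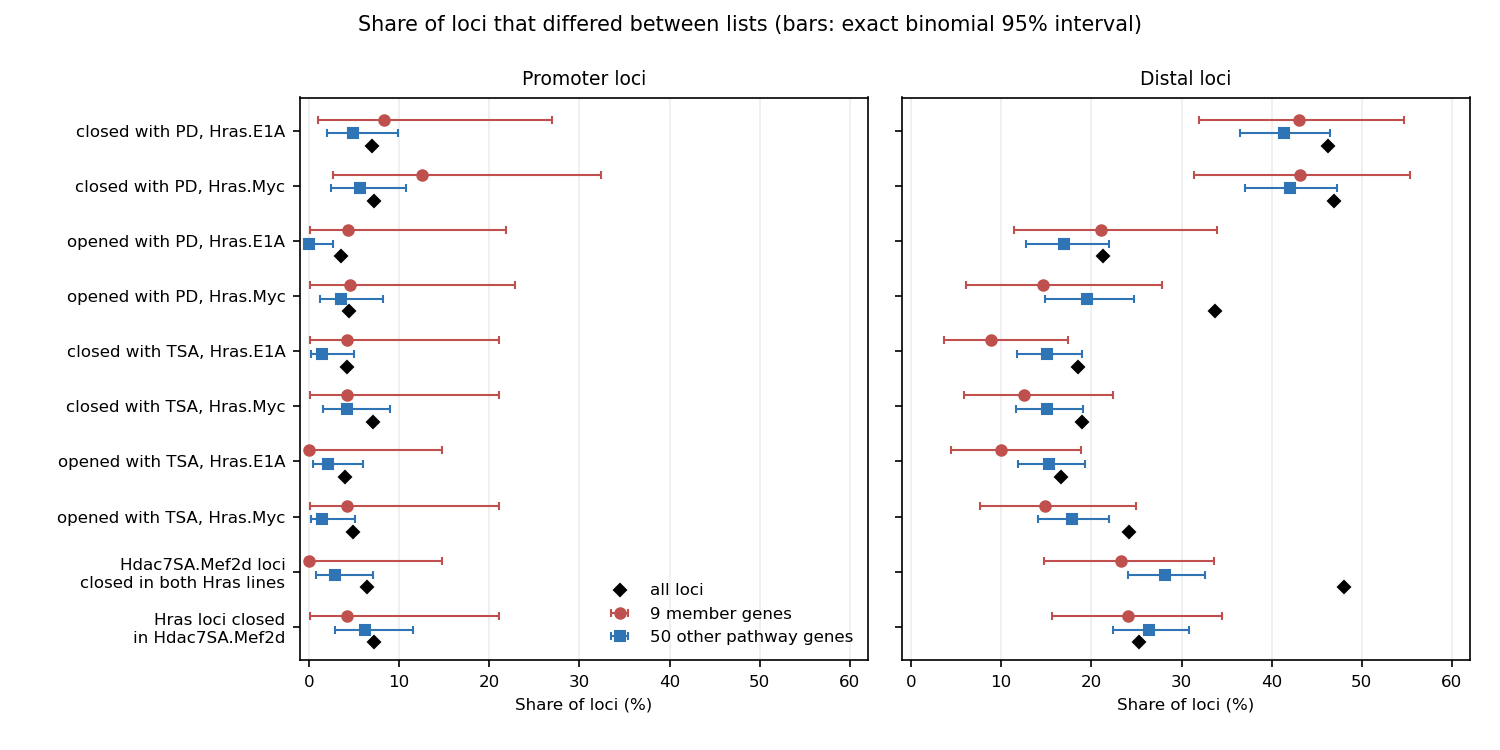
Points give the share of promoter loci (left) and distal loci (right) that differed between lists, for the 9 genes (red circles) and 50 other pathway genes (blue squares) with exact binomial 95% intervals for counting error, and for all loci (black diamonds). Closed shares are of the loci open without treatment and opened shares of the loci open with it. Distal closing with PD lies at 43.0% and 43.1% for the 9 genes, and the black diamonds stand to the right of both gene sets for opening with PD in Hras.Myc and for Hdac7SA.Mef2d.

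By role, PD closed 43.0% of the loci open in Hras.E1A and 38.2% of those open in Hras.Myc at the 10 nuclear effectors, 34.3% and 39.6% at the 10 feedback genes, 31.4% and 32.8% at the 12 cascade genes, and 26.4% and 25.5% at the 18 other induced genes, with loci in more than 1 window counted in each. Elk3, an ETS partner of SRF, lost the most, 12 of 15 loci in Hras.E1A and 9 of 15 in Hras.Myc. Ets1 lost 8 of 20 and 7 of 20, Ets2 lost 8 of 11 in Hras.E1A, and Ier5 lost 8 of 19 and gained 3 there. In Hras.Myc the phosphatase gene Dusp5 lost 8 of 15. Gains were fewer. In Hras.E1A the AP-1 genes Fosl1 and Jun gained 3 each and lost 2 each. In Hras.Myc the AP-1 gene Fos gained 4 and lost 1. Nf1, a negative regulator of RAS, gained 3 in Hras.Myc but lost 4 of 16 open loci there. The pathway genes whose shares of open loci over the 7 lists were most like the pooled 9 genes were Grb2, Elk1 and Elk4, with mean absolute differences of 5.12, 5.30 and 5.58 percentage points.

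Distance and rank of closed and kept distal loci are given for the 9 genes only, without values over all distal loci. Whether these genes differ from others in them was not tested. Of the 117 distal loci, 34 lay nearer to the TSS of another gene. Distal loci that closed lay at a median of 32884 bp from the gene start in Hras.E1A and 32730 bp in Hras.Myc, and kept ones at 23463 and 22930 bp. Within 10 kb of the start, 4 closed and 11 were kept in Hras.E1A, and 2 closed and 11 were kept in Hras.Myc. Closed distal loci had a median score of 4.01 (percentile 26.3) in Hras.E1A and 4.67 (percentile 32.5) in Hras.Myc before treatment, and kept ones 5.65 (44.7) and 6.19 (50.8). In each list the loci near the 9 genes ranked at or below the middle, with median percentiles from 30.2 in Hras.E1A to 50.3 in Hras.Myc with TSA. A weak peak is closer to the limit of calling, so the part of score in these closing calls was not tested.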

How the data were processed

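The data were 12 ATAC-seq libraries in 7 groups. Bowtie2 2.4.5, MACS2 2.2.7.1 and mm10 are listed in the submitters' processing notes. By the study's methods, weak MACS2 peaks were recovered with redefine_peaks at positions of peaks in other samples. The authors deposited 1 list of 400 bp peaks per group with a score, whose scale, like the pooling of libraries, the sources used here do not give.

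Overlapping peaks (1 bp or more) of chromosomes 1 to 19, X and Y were joined into loci. Genes and TSSs came from GENCODE M21 basic and motifs from GRCm38. Closed shares are of loci open without treatment, opened shares of loci open with it. Alternatives were 50% cover, unmerged peaks with 50% reciprocal overlap, lists of equal size, removal of the lowest 25% of scores, a 500 bp tolerance, flanks of 10 and 100 kb, leaving out Epha2, distal loci over 2500 bp from a TSS and a 400 bp motif window. The counting was tested on simulated peaks. Python 3.11.15, numpy 2.4.6, scipy 1.17.1, pysam 0.24.0 and matplotlib 3.10.9 were used.

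The genes and the pathway and marker lists were chosen with earlier results of these data known. Named were all 9 members, genes whose promoter is a changed member locus, the 4 pathway genes with most closed and with most opened loci per line under PD, and the 3 most alike, with ties broken by symbol. Some of these genes and a sequence are not reported here. Other neighbours, and single loci other than promoters or those changed alike in both lines, were named after their values were seen.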

Additional observations from a re-analysis of the deposited data

Results flagged for a closer look

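At 5 loci the peak calls of the Hras lines changed in opposite directions under the same treatment, 1 of them under both PD and TSA. The differences were not tested, since each group is 1 list. No count over all loci is given, so whether such loci were more frequent near these genes was not tested. With PD, the Ier2 locus 12374 bp downstream of the start scored 1.96 in Hras.E1A and closed, while it opened at 3.97 in Hras.Myc. With TSA the same locus closed from 1.96 in Hras.E1A and opened at 4.70 in Hras.Myc. The Epha2 locus 59671 bp downstream of the start scored 4.13 in Hras.Myc and closed with PD, while it opened at 2.00 in Hras.E1A. The remaining loci moved with TSA. At Egr3, 8023 bp downstream of the start, the score was 1.44 in Hras.E1A, where it closed, and 1.40 with TSA in Hras.Myc, where it opened. At Ier2, 41665 bp upstream, it was 2.37 in Hras.Myc, where it closed, and 1.38 with TSA in Hras.E1A. At Epha2, 26672 bp upstream, it was 1.26 in Hras.Myc, where it closed, and 1.29 with TSA in Hras.E1A. Most of these scores ranked low. For Hras.E1A and Hras.Myc, the percentiles were 2.39 and 1.87 at this Egr3 locus. They were 1.74 and 10.5 at the upstream Ier2 locus and 0.842 and 0.490 at the upstream Epha2 locus. At the downstream Ier2 locus they were 7.22 and 24.2 for PD, with 48.8 for TSA in Hras.Myc. At the downstream Epha2 locus they were 5.99 and 26.8. The part of score in these calls was not tested.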

How the results depend on the processing

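No paired analysis was possible because each group's replicates were pooled in 1 peak list, and for the same reason no replicate could be left out. Of 104 values for 18 results under other settings, 90 lay within the interval of the reported share and 14 did not. Shares over all loci under the same setting stand in parentheses. The shares closed with PD stayed within their intervals under every setting run. At equal list size they lay further below the background, at 26.4% (36.2%) in Hras.E1A and 30.6% (36.4%) in Hras.Myc. Among distal loci they were then 34.1% (44.0%) and 37.9% (45.3%). With lists cut to equal size by score, 18.9% (20.2%) of loci closed with TSA in Hras.E1A, 46.6% (35.9%) opened with PD in Hras.E1A and 28.6% (36.2%) in Hras.Myc, 28.3% (20.2%) opened with TSA in Hras.E1A, 36.6% (45.2%) of Hdac7SA.Mef2d loci were closed in both Hras lines and 66.2% (55.4%) of Hras loci were closed in Hdac7SA.Mef2d. This left 53 of the 103 open loci near the 9 genes in Hras.E1A. Without the lowest 25% of scores, 17.7% (20.0%) closed with TSA in Hras.E1A, 31.4% (22.4%) opened with PD in Hras.E1A, 19.0% (18.4%) and 24.3% (25.1%) opened with TSA in Hras.E1A and Hras.Myc, 33.3% (47.4%) of Hdac7SA.Mef2d loci were closed in both Hras lines, and 31.6% (30.9%) of Hras loci were closed in Hdac7SA.Mef2d. The share closed with TSA in Hras.Myc stayed within its interval under every setting run. ETS shares moved with the motif window. The cause of these shifts was not tested.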
